A study of Mus musculus with 2 samples.

Results

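In the hippocampus of old mice, 7 genes that mark the birth of neurons and cell division were read in every cell: Dcx, Sox11, Igfbpl1, Neurod1, Eomes, Mki67 and Top2a. They were chosen by name, each had 1 row in both libraries, and they are 7 of the 19059 genes measured. C57BL/6 mice of both sexes, 21 months old at the start, received standard chow (control) or the same kind of chow with 0.05% tomatidine, a steroidal alkaloid from tomato, for 3 months. Flash-frozen hippocampi of 4 mice per group were pooled, and fixed cells were counted with gene-specific probes, which gave 1 control and 1 tomatidine library. Each count is a unique molecular identifier (UMI), a tag that marks 1 captured probe molecule. With 1 library per group there was no test and no p-value, the spread between mice is unknown, and the treatment and the making of the library cannot be told apart. Intervals are 95% and cover counting error only.

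In the adult dentate gyrus, neural stem cells of the subgranular zone give rise to intermediate progenitors and neuroblasts, which mature into granule neurons. This process is known to decline steeply with age in mice. Eomes (Tbr2) marks the intermediate progenitors, Neurod1 drives the differentiation of granule neurons, Dcx (doublecortin) binds microtubules in migrating neuroblasts, Sox11 is a transcription factor of immature neurons, and Igfbpl1 is a secreted protein related to the insulin-like growth factor binding proteins. Mki67 (Ki-67) coats mitotic chromosomes and Top2a (topoisomerase II alpha) untangles replicated DNA, and both are made in dividing cells of any type. Dcx, Sox11 and Neurod1 are also known from other cells, including interneurons, cortical neurons, oligodendrocyte precursors and mature granule neurons.

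After filtering, 15115 control and 14502 tomatidine cells remained, with 206744516 and 200551962 UMIs and a median of 7077 and 7408 UMIs per cell. The libraries shared 292 cell barcodes. The cells formed 36 clusters, of which 22 could be named from marker genes, with the 7 genes left out of the clustering. Precursor cells were cluster 13, oligodendrocyte precursor-like, with 380 control and 350 tomatidine cells and all 16 measured markers raised. Granule neuron-like cells were clusters 3, 4 and 23, with 2734 and 2117 cells, a median of 13974 and 12633 UMIs, and 9, 12 and 12 of 12 measured markers raised. The marker classes held none for neural stem cells, intermediate progenitors or neuroblasts, so no cluster could be named for these cells. The libraries held unequal numbers of some clusters, such as cluster 28 with 171 control and 42 tomatidine cells and cluster 15 with 180 and 520.

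Dcx (chromosome X, 143855842 to 143933311 in mm10, minus strand) gave 3510 UMIs in the control and 4470 in the tomatidine library. A UMI was found in 2051 control cells (13.6%) and 2638 tomatidine cells (18.2%), and no cell had more than 10. Thus Dcx was spread thinly over many cells, with 60.8% and 60.6% of the positive cells at a single UMI. Sox11 (chromosome 12, 27334264 to 27342574, minus strand) was spread in the same way, with 5324 and 5267 UMIs in 2893 (19.1%) and 2925 (20.2%) cells. Neurod1 (chromosome 2, 79452521 to 79456751, minus strand) gave 11168 UMIs in 3938 control cells (26.1%) and 8347 in 3469 tomatidine cells (23.9%). In all 3 genes the 10 cells with the most UMIs held under 3% of the total, at 2.36% and 1.74% for Dcx in the control and tomatidine library. With every cell thinned to 1500 UMIs, to take out differences in depth, the shares of cells with a UMI were 2.05% and 2.86% for Dcx, 3.36% and 3.56% for Sox11 and 5.90% and 4.80% for Neurod1.

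The other 4 genes lay in few cells. Igfbpl1 (chromosome 4, 45809468 to 45826923, minus strand) gave 1444 control and 552 tomatidine UMIs in 262 (1.73%) and 130 (0.896%) cells, with up to 80 UMIs in a cell. The 10 cells with the most held 29.1% of its control and 54.2% of its tomatidine UMIs. Eomes (chromosome 9, 118478212 to 118486132, plus strand) gave 221 UMIs in 59 control cells and 38 in 16 tomatidine cells. Mki67 (chromosome 7, 135689784 to 135716361, minus strand) gave 17 UMIs in 15 control cells and 89 in 32 tomatidine cells. Top2a (chromosome 11, 98992943 to 99024189, minus strand) gave 17 in 16 and 74 in 19 cells. For Mki67 and Top2a a control cell had at most 2 UMIs, whereas a tomatidine cell had up to 23 and 22. The 10 cells with the most held 75.3% of the Mki67 and 87.8% of the Top2a UMIs of the tomatidine library.

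Of the cell classes, the highest Dcx levels were in interneuron-like cells, oligodendrocyte precursor-like cells and cortical or subicular neuron-like cells, not in granule neuron-like cells. In UMIs per 1000000 UMIs of the same cells (CPM), Dcx was at 42.6 in control and 46.5 in tomatidine interneuron-like cells. It was at 40.9 and 44.0 CPM in oligodendrocyte precursor-like cells, and at 35.7 and 42.9 in cortical or subicular neuron-like cells. The counting intervals of neighbours in this order overlapped. Dcx was lower in granule neuron-like cells, at 6.36 and 8.24 CPM, with a UMI in 9.58% and 11.3% of the cells. Oligodendrocyte-like cells, which should lack it, were at 3.83 and 6.05 CPM with a UMI in 2.16% and 3.38%, at a median of 5292.5 and 4824 UMIs per cell. They were the lowest of the named classes. Over both libraries, granule neuron-like cells ranked 12 among these classes, at 7.16 CPM. That was below microglia-like cells at 11.5 and astrocyte-like cells at 9.03 CPM, and above oligodendrocyte-like cells at 4.78. The 3 genes whose level over the 36 clusters was most like that of Dcx were Dpp10, Bean1 and Bscl2, with a Pearson r of 0.87, 0.86 and 0.85.

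Sox11 was highest in oligodendrocyte precursor-like cells, at 54.1 control and 56.9 tomatidine CPM, and in cortical or subicular neuron-like cells, at 47.8 and 62.5. The order of these classes turned between the libraries. They were followed by granule neuron-like cells at 44.1 and 41.4. Over both libraries the first pair did not differ beyond counting error, at 55.3 and 54.7 CPM. Granule neuron-like cells thus held Sox11 well above the 3.51 and 4.98 CPM of oligodendrocyte-like cells, with a UMI in 43.8% and 41.0% of the granule neuron-like cells. The genes most like Sox11 over the clusters were Brinp3, Zdhhc21 and Lrtm2, with r of 0.77, 0.76 and 0.75.

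Neurod1 followed the hippocampal excitatory neurons. Granule neuron-like cells held 147 CPM in the control and 129 in the tomatidine library, and 74.0% and 70.8% of them had a UMI. CA3 pyramidal neuron-like cells were at 54.3 and 59.4 CPM and CA1 pyramidal neuron-like cells at 44.2 and 39.2, and the intervals of these 3 classes did not overlap over both libraries. Interneuron-like cells were at the low end of the named neurons, at 4.66 CPM over both libraries. Cluster 30, which stayed unnamed and was led by Gpr151, Chrnb4 and Nppa, stood above the granule neuron-like cells, at 229 and 277 CPM from 499 and 133 UMIs. The genes most like Neurod1 over the clusters were Nrn1, Rtn4r and Olfm1, with r of 0.88, 0.86 and 0.80. All correlations of this kind are over 14631 genes and 36 clusters of the same libraries, and the clusters are not independent of each other.

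**Figure D1:**
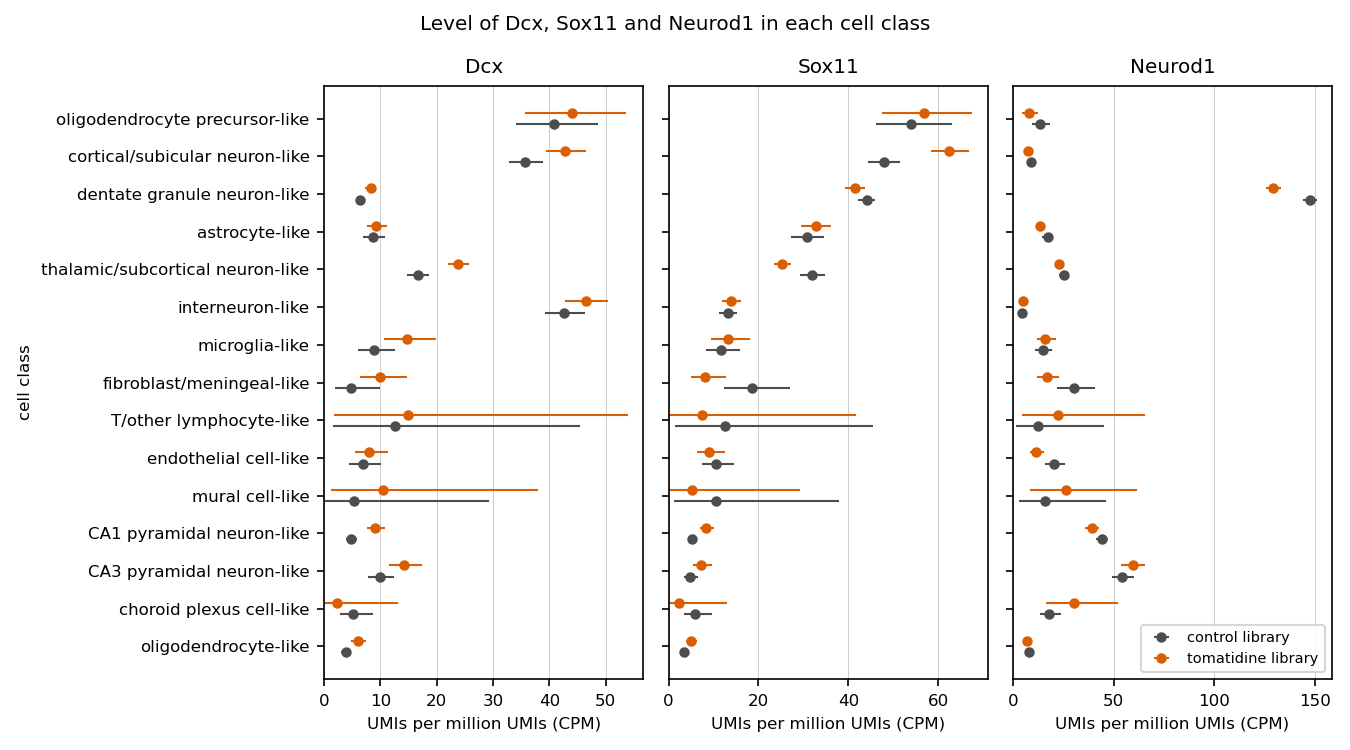
Level of Dcx, Sox11 and Neurod1 in CPM (horizontal axes) in each of the 15 named cell classes (vertical axis, ordered by Sox11), with a point for the control and a point for the tomatidine library and bars for the exact Poisson counting interval at 95%. Granule neuron-like cells lead for Neurod1 (147 and 129 CPM) but lie low for Dcx (6.36 and 8.24 CPM).

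Igfbpl1 lay mostly in a cluster outside the named classes. Of its 1996 UMIs in both libraries, 1453 (72.8%) were in cluster 28, a cluster of 213 cells led by Prdm12, Glp1r, Col6a3 and Sp8 that carried no class name. There, 57.9% of the 171 control cells and 50.0% of the 42 tomatidine cells had Igfbpl1, at 304 CPM (287 to 322) and 539 CPM (479 to 603). Outside cluster 28, Igfbpl1 was at 1.43 CPM in the control and 1.26 CPM in the tomatidine library. The next clusters by level included cluster 15, led by Sox14, Gata3 and Lhx5, with 75 control and 65 tomatidine UMIs, and cluster 11, subcortical neuron-like, with 45 and 88. The genes most like Igfbpl1 over the clusters included Prdm12 and Zar1, with r of 0.84 and 0.82, which became 0.44 and 0.51 without cluster 28.

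Eomes was concentrated in a small set of deep cells. Cluster 19, an unnamed cluster led by Ctxn3, Ebf3 and Calb2, held 162 of 259 Eomes UMIs (62.5%). They came from 16 of its 196 control cells (139 UMIs) and 5 of its 347 tomatidine cells (23 UMIs). Within it, 19 cells had 3 or more Eomes UMIs, 15 control and 4 tomatidine, and these 19 held 61.4% of all Eomes UMIs at a median depth of 21599 UMIs, against 3202.5 in the 522 cells of the cluster without Eomes. Genes of neural progenitors were mixed in the 19 cells. Neurog2, Pax6 and Nes were at 0, as were Mki67 and Top2a, and Neurod1 had 2 UMIs. The 522 cells without Eomes held only 2, 18 and 1 UMIs of Neurog2, Pax6 and Nes. Hopx, which marks quiescent stem cells but is not limited to them, was in all 19 at 412 CPM, against 70.9 CPM in the cells without Eomes, and Id4 was in 16 with 31 UMIs. They held Calb2, the calcium-binding protein calretinin, at 5910 CPM and the neuronal genes Stmn2 and Tubb3 at 674 and 566 CPM. Their Dcx and Sox11 were at 86.4 and 116 CPM, against 16.2 and 27.1 CPM in the rest of the cluster, and Igfbpl1 was at 0. Eomes is also known from Cajal-Retzius cells, and the markers of these were mixed too: Trp73 was at 0 in the 19 cells and Reln had 1 UMI, while Ebf3 was in all 19 (615 against 68.1 CPM), Lhx1 in 15 (86.4 against 14.8 CPM) and Barhl2 in 10. Markers of subcortical neurons summed to 50 to 268 UMIs per cell, but that list includes Calb2, which had 2393 UMIs in the 19 cells. These companion genes of the 19 cells were read after the cells were seen.

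Outside cluster 19, Eomes gave 82 UMIs in 43 control cells and 15 in 11 tomatidine cells. T or other lymphocyte-like cells, in which Eomes is a known regulator of cytotoxic cells, had 9 control and 2 tomatidine UMIs in 8 of 89 cells, or 37.6 CPM over both libraries. Granule neuron-like cells had 3 control UMIs and 0 tomatidine UMIs, and oligodendrocyte precursor-like cells 2 and 0. No cell had Eomes together with Mki67 or with Top2a. The genes most like Eomes over the clusters were Samd3, Trdc and S100a8, with r of 0.91, 0.70 and 0.70.

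**Figure D2:**
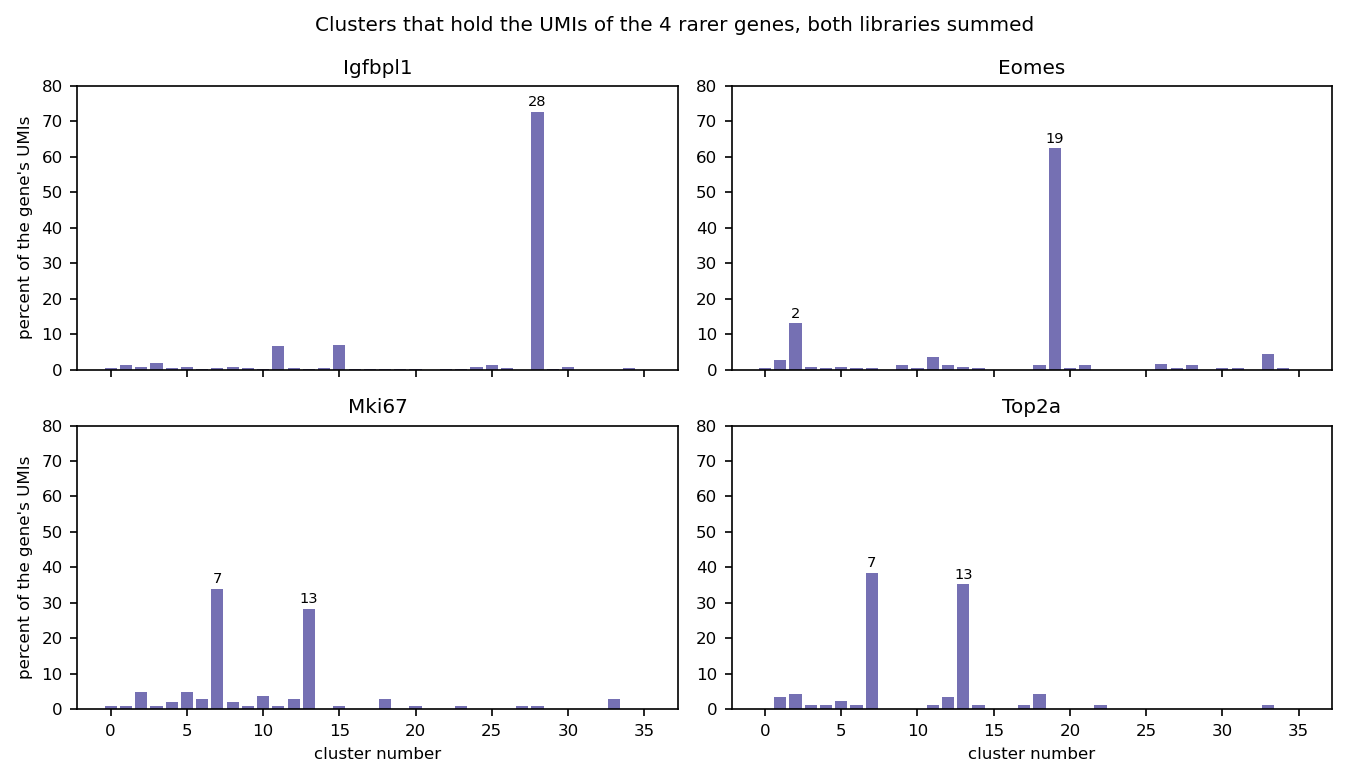
Percent of the UMIs of Igfbpl1, Eomes, Mki67 and Top2a (vertical axes, both libraries summed) in each of the 36 clusters (horizontal axis, cluster number), with the number written over clusters that hold at least 10%. Cluster 28 holds 72.8% of Igfbpl1 and cluster 19 holds 62.5% of Eomes.

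Mki67 and Top2a are transcribed in step with the cell cycle, through promoter elements that include CCAAT boxes, bound by NF-Y, and the cell cycle homology region, whose core is TTTGAA. The 250 bases upstream of each start (RefSeq, GRCm38.p6), at chr7:135716380-135716629 for Mki67 and chr11:99024190-99024439 for Top2a, both on the minus strand, are printed 5′ to 3′ because UMIs of these 2 genes met in the same cells. Capitals mark CCAAT or TTTGAA on either strand, so also ATTGG and TTCAAA.
Mki67: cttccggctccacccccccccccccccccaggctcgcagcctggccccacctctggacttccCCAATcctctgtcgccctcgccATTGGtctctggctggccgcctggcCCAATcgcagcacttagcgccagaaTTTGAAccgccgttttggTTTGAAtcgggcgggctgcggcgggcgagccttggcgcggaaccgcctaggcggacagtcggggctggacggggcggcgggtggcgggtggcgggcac
Top2a: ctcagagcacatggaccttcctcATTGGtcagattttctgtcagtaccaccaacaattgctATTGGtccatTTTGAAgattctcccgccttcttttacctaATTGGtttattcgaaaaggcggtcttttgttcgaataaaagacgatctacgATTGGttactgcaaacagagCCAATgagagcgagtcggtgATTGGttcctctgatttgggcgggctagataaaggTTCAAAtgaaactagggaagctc
Mki67 had CCAAT in 3 places and TTTGAA in 2, and Top2a had them in 6 and 2. Of 32536 upstream stretches of the same length, 10.1% held CCAAT in 2 or more places, 15.8% held TTTGAA and 5.52% held both motifs. Eomes had CCAAT in 2 places and no TTTGAA, Sox11 had each in 1 place, Neurod1 had neither, and the 2 start windows of Dcx had CCAAT in 1 and 0 places. Igfbpl1 was not among the stretches used here. A match is only a description of the letters.

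Only 12 cells carried both Mki67 and Top2a, 2 control cells (0.0132%) and 10 tomatidine cells (0.0690%). The difference was 0.0557 percentage points, with a Newcombe interval of 0.0086 to 0.114. The 2 control cells were astrocyte-like and fibroblast or meningeal-like, with 1 and 1 Mki67 UMIs and 2 and 1 Top2a UMIs. Of the 10 tomatidine cells, 6 were microglia-like, 3 were oligodendrocyte precursor-like and 1 was subcortical neuron-like. The highest microglia-like cell had 23 Mki67 and 21 Top2a UMIs, and the highest precursor-like cell 12 and 22. At least 2 UMIs of each gene were found in 4 tomatidine cells and 0 control cells. None of the 12 was granule neuron-like: 0 of 2734 control and 0 of 2117 tomatidine cells had both genes. At a floor of 3 cells the shares would be 0.110% and 0.142%.

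Other genes of the division phases were also high in those 12 cells, although these genes played no part in choosing them. The 29 measured genes of a list for G2 and M phase, without Mki67 and Top2a, summed to 439 UMIs there, or 4087 CPM, against 55.9 CPM in all other cells. The list summed to between 0 and 173 UMIs per cell, with a median of 19. Prc1, Tpx2 and Ube2c, which act in spindle assembly, cytokinesis and mitotic exit, had 30, 29 and 27 UMIs. Genes of S phase were at 1564 against 155 CPM, led by Pcna with 31 UMIs, the sliding clamp of DNA replication. Of Dcx, Sox11, Igfbpl1, Neurod1 and Eomes, the 12 cells had at most 2 UMIs of any in a cell. The precursor-like cell with 12 Mki67 UMIs also carried 139 UMIs of precursor markers and 92 of microglia markers, and 26170 UMIs in all. The part of mixed droplets in that cell was not tested.

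**Figure D3:**
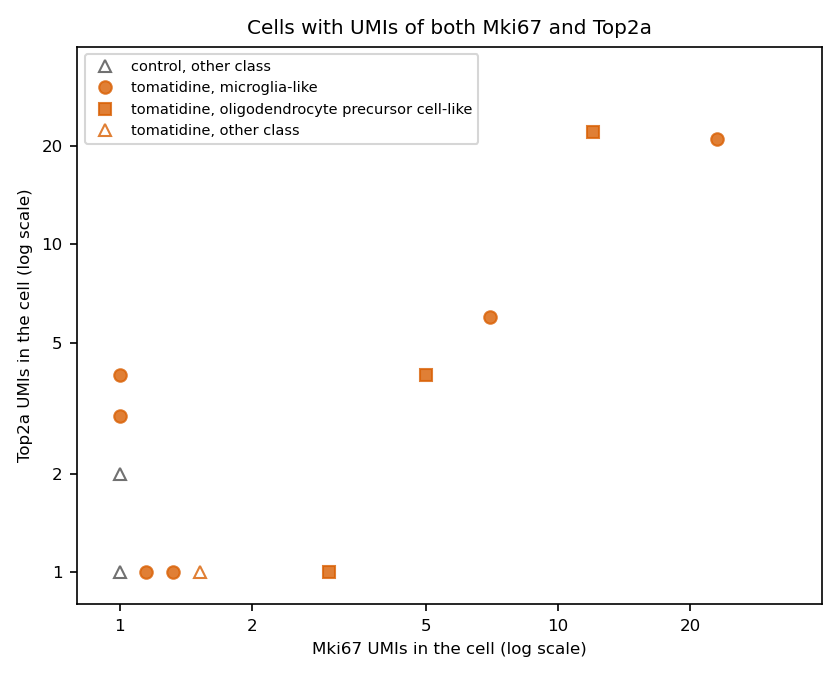
Mki67 UMIs (horizontal axis, log scale) against Top2a UMIs (vertical axis, log scale) in the 12 cells with both, coloured by library and shaped by class, with overlapping points moved slightly sideways. Those above 3 UMIs of either gene are from the tomatidine library and are microglia-like or oligodendrocyte precursor-like.

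Over all kept cells, the tomatidine library held more Dcx, Mki67 and Top2a and less Igfbpl1, Neurod1 and Eomes relative to all UMIs than the control library. Of the 7 genes, 4 differed by more than 1.5-fold, against 7.61% of the 15710 genes with at least 20 UMIs, and for 6 the counting interval left out 0, against 65.8% of those genes. Of these 4, Mki67 and Top2a had 17 control UMIs each and reached 20 only with those of the tomatidine library. All 15710 genes had a median log2 ratio of 0.03. Dcx was at 17.0 CPM in the control and 22.3 in the tomatidine library, a log2 ratio of 0.39 (0.33 to 0.46). Sox11 was at 25.8 and 26.3 CPM (0.03, -0.03 to 0.08), so it did not differ beyond counting error. Neurod1 was at 54.0 and 41.6 CPM (-0.38, -0.42 to -0.34).

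Igfbpl1 was at 6.98 CPM in the control and 2.75 in the tomatidine library, with a log2 ratio of -1.34 (-1.49 to -1.20). Cluster 28 held 79.8% of the control and 54.3% of the tomatidine UMIs, from 171 and 42 cells. Without cluster 28 the log2 ratio was -0.19 (-0.44 to 0.06), and within cluster 28 it was 0.82 (0.64 to 1.01), in the opposite direction. The share of cells with Igfbpl1 there was 57.9% in the control and 50.0% in the tomatidine library. The medians were 1 and 0.5 UMIs per cell, at median depths of 14204 and 5701.5 UMIs. Across the tomatidine library, 10 cells held 54.2% of the Igfbpl1 UMIs, and the ratio within cluster 28 was not computed without its top cells. Eomes was at 1.07 and 0.189 CPM (-2.50, -3.03 to -1.99). Mki67 was at 0.0822 and 0.444 CPM (2.43, 1.67 to 3.27) and Top2a at 0.0822 and 0.369 CPM (2.17, 1.39 to 3.02), from the few cells described above. With the mean over cells of each cell's own share of UMIs, Mki67 was at 1.51 and Top2a at 0.84, and with both sets of thresholds in the study's Methods Eomes was at -1.28.

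With each cluster given the same weight in both libraries, a setting chosen after seeing the data, Dcx differed by 0.24, Sox11 by 0.05, Neurod1 by -0.13, Eomes by -2.21, Mki67 by 2.59 and Top2a by 2.28 on the log2 scale. Igfbpl1, most of whose UMIs lay in the 171 control and 42 tomatidine cells of cluster 28, turned from -1.34 to 0.42. The direction of Igfbpl1 over all cells thus turned with the mix of clusters, while those of Dcx, Neurod1, Eomes, Mki67 and Top2a were the same under both weightings.

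**Figure D4:**
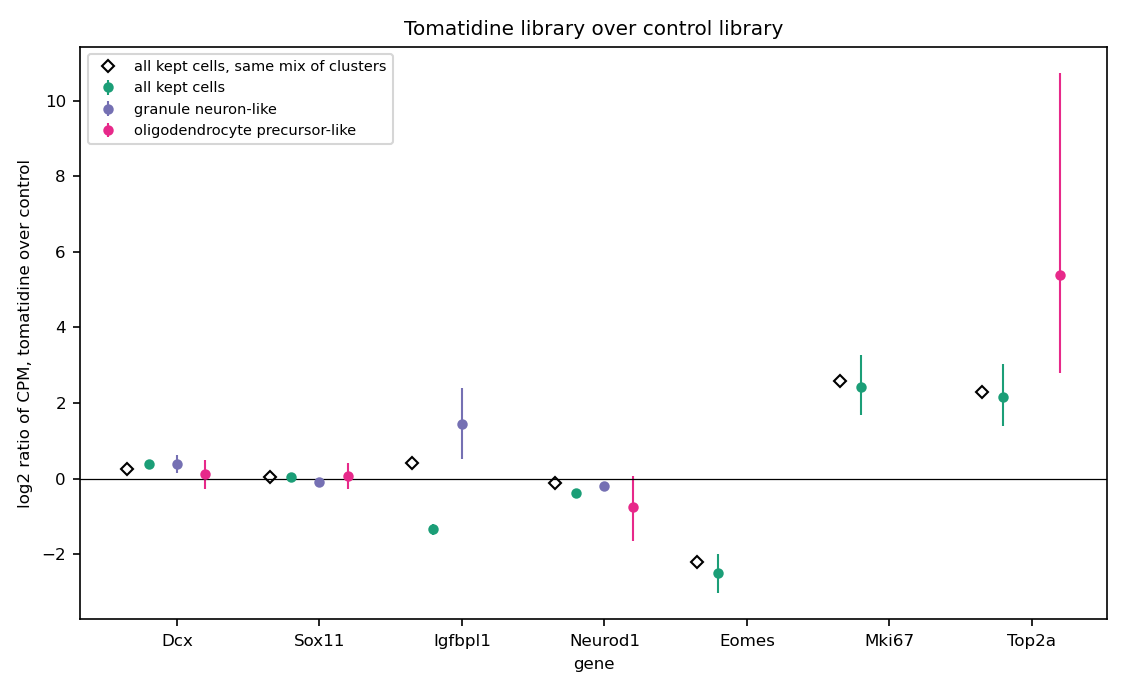
Log2 ratio of CPM, tomatidine over control (vertical axis), for each gene (horizontal axis) in all kept cells, granule neuron-like cells and oligodendrocyte precursor-like cells, with bars for the exact conditional binomial interval at 95% and open diamonds for all kept cells at the same mix of clusters. Igfbpl1 lies at -1.34 in all kept cells, at 0.42 with the same mix and at 1.44 in granule neuron-like cells, where 1 cell sets the value.

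Among Dcx, Sox11 and Neurod1, Dcx had the most uniform direction over the classes. In 12 classes with at least 20 Dcx UMIs, it was higher in the tomatidine library in all 12, with log2 ratios of 0.08 to 1.03, and in 7 the interval lay above 0. Over clusters it was higher in 25 and lower in 5 of 30. Eomes was lower in the tomatidine library in each of the 11 classes with a direction, although 1 class alone, astrocyte-like, had at least 20 UMIs (32 control and 5 tomatidine). In CA1 pyramidal neuron-like cells Dcx was at 4.70 control and 9.07 tomatidine CPM (log2 0.95, 0.55 to 1.35), and in subcortical neuron-like cells at 16.6 and 23.8 (0.52, 0.32 to 0.73). The interneuron-like cells, with the most Dcx, differed by 0.12 (-0.05 to 0.30), and oligodendrocyte-like cells, with the least, differed by 0.66 (0.19 to 1.13). The difference was therefore also present where the level was lowest. Since all classes come from the same 2 libraries, they are not independent of each other.

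Sox11 and Neurod1 had mixed directions over the classes. Sox11 was higher in the tomatidine library in 8 of 12 classes and lower in 4, with 2 intervals above and 2 below 0. It was higher in cortical or subicular neuron-like cells (47.8 control and 62.5 tomatidine CPM, log2 0.39, 0.24 to 0.53) and lower in subcortical neuron-like cells (32.0 and 25.3 CPM, -0.34, -0.50 to -0.17). Neurod1 was higher in 4 and lower in 9 of 13 classes, with 0 intervals above and 5 below 0, and the log2 ratios ran from -0.85 to 0.75.

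In granule neuron-like cells, the neurons that adult neurogenesis produces, Dcx gave 300 control and 287 tomatidine UMIs. Over both libraries its level was 7.16 CPM, no higher than in microglia-like (11.5) or astrocyte-like cells (9.03). Its log2 ratio of CPM was 0.37 (0.13 to 0.61), and the tomatidine level was higher in each of 4 groups of cells split by depth, from 12.2 against 15.7 CPM in the shallowest to 4.15 against 4.38 in the deepest. Sox11 gave 2079 and 1444 UMIs and did not differ beyond counting error (-0.09, -0.19 to 0.01). Neurod1 gave 6949 and 4503 UMIs and was lower in the tomatidine library, at a log2 ratio of -0.19 (-0.24 to -0.13). Its direction turned with depth, at 111 control and 120 tomatidine CPM in the shallowest cells and 161 and 135 in the deepest. Mki67 had 2 UMIs in each library and Top2a 1 in each. Of the 4 genes with at least 20 UMIs in these cells, Igfbpl1 alone differed by more than 1.5-fold, against 4.5% of 13485 genes, and 3 had an interval that left out 0, against 35.7%. Of the 32 tomatidine UMIs of Igfbpl1, 30 lay in 1 cell, without which it would not have reached 20 UMIs. The median log2 ratio of all genes in granule neuron-like cells was 0.03.

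Igfbpl1 in granule neuron-like cells came to 16 control and 32 tomatidine UMIs (0.339 and 0.918 CPM, log2 1.44, 0.53 to 2.40). The control UMIs lay in 13 cells with 1 or 2 each. In the tomatidine library, 30 of the 32 UMIs lay in 1 cell, and without it the log2 ratio was -2.56 (-5.73 to -0.47). Hence the higher level in the tomatidine library was that of 1 cell.

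That cell, of cluster 3 with 7797 UMIs, also had 2 UMIs each of Dcx, Sox11 and Neurod1 and 0 of Eomes, Mki67 and Top2a. Of 23 listed genes of immature neurons, which do not include the 7 genes, 16 were found in it, with 93 UMIs in sum. Among 881 other granule neuron-like cells of similar depth (6244 to 9742 UMIs), the sum had a median of 16 and a highest value of 49, and the number of genes found had a median of 7 and a highest value of 15. The most abundant in the cell were Islr2 with 34 UMIs, Sema3c with 14 and Neurod2 with 10, genes of growing axons and differentiating excitatory neurons. It held 9 UMIs of Prox1, the transcription factor that specifies granule neurons, and 4 of 12 measured granule neuron markers, against a median of 8 in the others. The cell was picked for its Igfbpl1 after the values were seen, and it is 1 of 2117 granule neuron-like cells of its library.

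In oligodendrocyte precursor-like cells, Dcx gave 124 control and 99 tomatidine UMIs, and Sox11 gave 164 and 128. Neither differed beyond counting error, at log2 ratios of 0.11 (-0.29 to 0.50) and 0.07 (-0.27 to 0.42). A UMI of Dcx was found in 24.2% and 21.4% of the cells. Neurod1 gave 41 and 18 UMIs (-0.76, -1.64 to 0.08), and Igfbpl1 gave 4 control UMIs and 0 tomatidine UMIs.

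The division genes differed more in these precursors. Mki67 gave 0 control and 30 tomatidine UMIs, and the counting interval of its log2 ratio began at 3.37. With the control put at a floor of 3 UMIs (0.989 CPM), it was 13.5-fold higher in the tomatidine library. Without the cell with the most, which had 12, it was 8.18-fold higher at that floor. Top2a gave 1 and 31 UMIs (0.330 and 13.8 CPM, log2 5.39, 2.80 to 10.7). The tomatidine UMIs of Top2a were mostly those of 1 cell with 22, and without it the log2 ratio was 3.62 (0.77 to 9.07), from 1 and 9 UMIs. With both genes there were 0 of 380 control cells (0.789% at a floor of 3 cells) and 3 of 350 tomatidine cells. Of 5 genes with at least 20 UMIs here, 3 differed by more than 1.5-fold, against 8.02% of 11808 genes, and 2 had an interval that left out 0, against 16.3%. Mki67 and Top2a reached 20 UMIs, summed over both libraries, only through the tomatidine library, so these counts add nothing to their ratios. The median log2 ratio of all genes in precursor-like cells was 0.03.

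Microglia-like cells held another share of the division genes. Mki67 and Top2a each gave 1 control and 38 tomatidine UMIs, with a log2 ratio of 5.47 (2.91 to 10.8). Of the tomatidine UMIs, 23 of Mki67 and 21 of Top2a lay in 1 cell, and without it the log2 ratios were 4.14 (1.44 to 9.53) and 4.32 (1.64 to 9.70). They lay in 11 of 810 tomatidine cells, of which 4 had a single UMI, and in 2 of 912 control cells. Of the 5 genes with at least 20 UMIs in these cells, Dcx among them at 8.77 and 14.7 CPM (0.75, 0.04 to 1.47), 3 differed by more than 1.5-fold, against 8.96% of 12227 genes. The same 3 had intervals that left out 0, against 17.5%. Here too, Mki67 and Top2a reached 20 UMIs only through the tomatidine library, so these counts add nothing to their ratios. The median log2 ratio of all genes in microglia-like cells was 0.05.

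Lists of related genes, which leave out the 7, give the setting. Over all kept cells, 26 of 29 genes of G2 and M phase were higher in the tomatidine library, with a median log2 ratio of 0.30, 7 of them by more than 1.5-fold. The interval lay above 0 for 9 and below 0 for 1, a smaller share than the 65.8% over all genes. The summed level of the list was lower in the tomatidine library, at 59.5 control and 54.4 tomatidine CPM. Most of that sum, 12301 control and 10908 tomatidine UMIs, was 1 gene, Anln. Outside the 12 cells with both Mki67 and Top2a, Anln had 13773 UMIs and was found in 19.7% of the cells. In oligodendrocyte precursor-like cells, 13 of 15 S phase genes with at least 20 UMIs were higher (median 0.40). The interval lay above 0 for 3 and below 0 for 0, where 16.3% of all genes had an interval that left out 0. In microglia-like cells 12 of 13 were higher (median 0.35), with 4 intervals above and 0 below 0, against 17.5%. Cells with both Mki67 and Top2a held 48 of 868 tomatidine S phase UMIs in precursor-like and 112 of 797 in microglia-like cells. Genes of stem and progenitor cells, such as Nes and Pax6, did not share a direction, with 11 of 17 higher over all kept cells (median 0.06) and none beyond 1.5-fold. Genes of immature neurons were higher for 13 of 23 over all kept cells (median 0.14) and for 14 of 22 in granule neuron-like cells (median 0.07), in both with none beyond 1.5-fold. In granule neuron-like cells 8 of 17 S phase genes were higher (median 0.00), and 10 of 17 genes of G2 and M phase (median 0.21, 2 intervals above 0 and 0 below).

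A limit of 3 or more summed UMIs of Dcx, Sox11 and Igfbpl1 was then applied to each cell. It took 1163 control cells (7.69%, 7.27 to 8.13) and 1265 tomatidine cells (8.72%, 8.27 to 9.19), a difference of 1.03 percentage points (0.40 to 1.66). The cells taken were the deep ones, with a median of 32636.5 UMIs against 6420 in the others. In the shallowest group of cells the shares were 0.0770% and 0.171%, and in the deepest 24.7% and 26.8%. With every cell thinned to 1500 UMIs (1230 control and 1194 tomatidine cells were too shallow), the shares were 0.0866% and 0.0715%, a difference of -0.0151 points (-0.0878 to 0.0571). Thinned to that depth, few cells pass the limit and the libraries did not differ beyond counting error. Among unthinned cells of 7236 to 17010 UMIs, the shares were 5.29% (4.59 to 6.06) in the control and 6.78% (5.99 to 7.64) in the tomatidine library. An interval for this difference was not computed, and overlap of the separate intervals does not show whether it exceeds counting error.

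**Figure D5:**
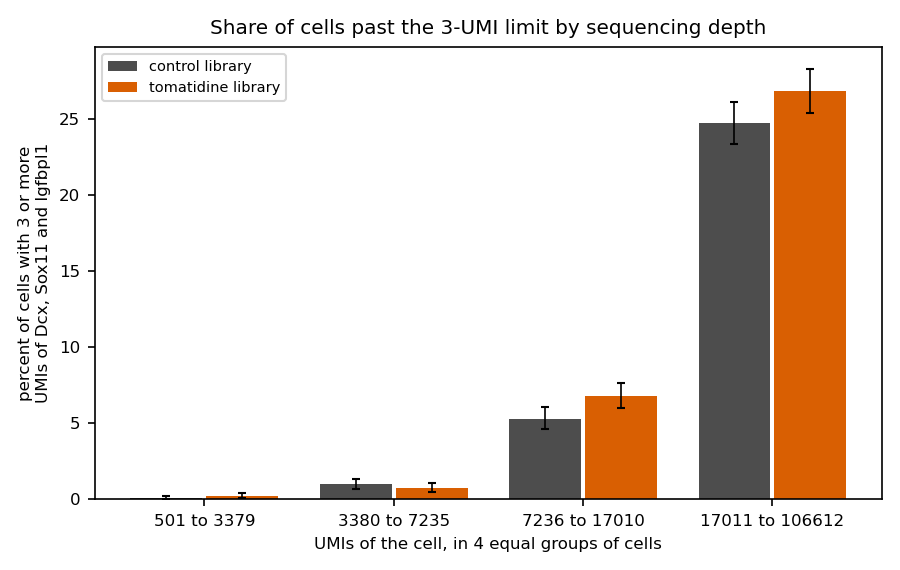
Percent of cells with 3 or more summed UMIs of Dcx, Sox11 and Igfbpl1 (vertical axis) in 4 equal groups of cells by UMIs per cell (horizontal axis), for the control and the tomatidine library, with exact binomial intervals at 95%. The share goes from 0.0770% and 0.171% in the shallowest to 24.7% and 26.8% in the deepest cells.

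Cells past the limit came from many classes, and the share differed between classes of like depth. Over both libraries it was 2.53% in CA1 pyramidal neuron-like cells (median 18193 UMIs) and 21.8% in interneuron-like cells. At medians of 13307 and 13305 UMIs, it was 3.16% in CA3 pyramidal neuron-like and 9.09% in granule neuron-like cells. The limit took 399 of 968 cortical or subicular neuron-like cells (37.2% of control and 45.4% of tomatidine cells), 359 subcortical neuron-like, 228 interneuron-like, 441 granule neuron-like and 51 oligodendrocyte precursor-like cells, while 799 were in unnamed clusters. In cluster 28 it took 52.1% of the cells, and in oligodendrocyte-like cells 8 of 5353 (0.133% and 0.171%). Different genes carried the cells past it: Dcx gave 76.8% of the summed UMIs of those interneuron-like cells, and Sox11 gave 86.2% in the granule neuron-like cells. In granule neuron-like cells it took 9.80% of control and 8.17% of tomatidine cells, and in precursor-like cells 7.89% and 6.00%. The median depth over both libraries was 27338 UMIs in cortical or subicular neuron-like, 29172.5 in subcortical neuron-like, 16392.5 in interneuron-like and 6062 in precursor-like cells. Thinned to 1500 UMIs, the shares were 0.120% control and 0.0930% tomatidine in precursor-like cells, against 0.0337% and 0.0532% in interneuron-like and 0.0755% and 0.0370% in subcortical neuron-like cells.

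Within granule neuron-like cells, the genes that the limit did not use differed little between cells inside and outside it. Granule neuron-like cells past the limit held Neurod1 at 148 CPM, against 138 in the other granule neuron-like cells (log2 0.10, 0.03 to 0.17). Of 22 immature neuron genes 13 were higher inside, with a median log2 ratio of 0.04 and 1 beyond 1.5-fold, and of 16 stem and progenitor genes 7 were higher (median -0.01). Of the immature neuron genes, Neurod2, Marcksl1 and Crmp1 had the most UMIs there, at 608, 446 and 373 CPM inside and 638, 387 and 360 outside. In precursor-like cells past the limit, Neurod1 was at 26.5 against 8.90 CPM (log2 1.57, 0.69 to 2.41). Of 20 immature neuron genes 10 were higher inside (median 0.02) and 3 differed by more than 1.5-fold, with Neurod2 at 163 against 52.1 CPM and Islr2 at 75.1 against 24.3. Of 15 stem and progenitor genes 5 were higher inside (median -0.17). None of the 30 Mki67 and 32 Top2a UMIs of these precursors lay in them. Over all kept cells, the cells past the limit held 161 of the 259 Eomes UMIs but only 8 of 106 Mki67 and 2 of 91 Top2a UMIs.

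Stricter readings of the limit took mostly cells of clusters 28 and 15. At least 1 UMI of each of the 3 genes was found in 63 control and 26 tomatidine cells. Of these, 34 were in cluster 28, 25 in cluster 15, 12 in cluster 11 and 2 in cluster 3, a granule neuron-like cluster. Another was in cluster 4, also granule neuron-like. At least 3 UMIs of each were found in 10 control and 0 tomatidine cells, 9 of them in cluster 28, and 0 of 14502 has an exact upper limit of 0.0254%. Cells past the summed limit that also had Igfbpl1 or Eomes numbered 170 in the control and 82 in the tomatidine library, 98 of them in cluster 28 and 43 in cluster 15. Besides Igfbpl1 and Eomes, which chose them, the genes with the highest fold over all other cells included Prdm12 (145-fold), Sost (57.8), Glp1r (45.3), Slc10a4, Nmur2 (39.6) and Sln (39.3), followed by Duox2, Chrne, Lbhd2, Col6a3, Qrfprl and Npffr1. None of these 12 was on the lists of stem, progenitor or immature neuron genes.

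No cell held all 7 genes. Dcx and Sox11 were found together in 1767 cells (763 control and 1004 tomatidine), which is 37.7% of Dcx-positive and 30.4% of Sox11-positive cells, at a median of 31016 UMIs. Sox11 and Neurod1 were found together in 2818 cells and Dcx and Neurod1 in 1728. Igfbpl1 and Eomes shared 3 cells.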

How the data were processed

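The data were 1 control and 1 tomatidine library of fixed hippocampal cells, each from 4 pooled mice. The authors aligned the reads to mm10 with Cell Ranger (8.0.0 in the submitters' processing notes, 7.1.0 in the matrix headers) and deposited filtered matrices of counts, which are UMIs per gene and cell without normalization. Totals were 279525565 UMIs in 15912 control cells and 259059908 in 15185 tomatidine cells. No column was left unused for want of a sample.

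The cell filter asked for 500 or more UMIs, over 250 genes, a complexity (log10 genes divided by log10 UMIs) above 0.8 and mitochondrial UMIs under 20%. Scrublet (scanpy 1.11.5) called 0 control and 2 tomatidine cells as doublets; in its place the top 2% by score were dropped (308 and 296). Clustering used Seurat 5.3.0 with RPCA integration (R 4.3.3; 2000 variable genes, 30 principal components, Louvain resolution 0.8), leaving out the 7 genes and the listed genes. A cluster was named when 1 marker class led its 10 top genes by fold and also led in raised markers (at least 3; raised is 2-fold higher and in 10% of cells). The rule for names came after the clusters had been seen, the names are not the study's, and 14 clusters (18.9% of control and 21.2% of tomatidine cells) stayed unnamed.

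CPM is summed UMIs per 1000000 UMIs of the same cells. Ratios have exact conditional binomial intervals, shares Clopper-Pearson and differences of shares Newcombe intervals, at 95%. Ratios were read for genes with at least 20 UMIs, a fold above 1.5 counted as a call, and a count of 0 was set to a floor of 3. Thinned shares are expected values. The calculations were tested on simulated counts. TMM factors came from edgeR 4.0.16, used for these alone. Other tools were matplotlib 3.10.9, pandas 2.3.3, scipy 1.17.1 and numpy 2.4.6 under Python 3.11.15.

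The genes named are the 7, the 3 of each list with the most UMIs in the cells described, the 3 genes most like each of the 7 over the clusters (log2(CPM + 1), at least 100 UMIs), and the 15 with the highest fold in cells past the 3-UMI limit with Igfbpl1 or Eomes. Some genes that these rules select are not reported here. Genes that lead a cluster, or that were read in a few picked cells, were added after their values were seen. The 7 genes, the lists and the tests were chosen with earlier results of these data known. Alternatives covered the cell filter, doublets, clustering, scaling, thresholds and depth.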

Additional observations from a re-analysis of the deposited data

Results flagged for a closer look

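Some genes differed in opposite directions between cell classes, without a test of the difference. Sox11 was higher in the tomatidine library in CA1 pyramidal neuron-like cells (103 control and 118 tomatidine UMIs, log2 ratio 0.67, 0.27 to 1.06) but lower in fibroblast or meningeal cell-like cells (27 and 20 UMIs, -1.18, -2.09 to -0.29). Igfbpl1 was higher in granule neuron-like cells (log2 ratio 1.44), where 30 of the 32 tomatidine UMIs lay in 1 cell, but lower in oligodendrocyte-like cells (30 and 3 UMIs, -2.90, -5.26 to -1.22). Each class is 1 control and 1 tomatidine library, so neither difference between classes was tested.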

How the results depend on the processing

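Of 154 recomputed values, 127 stayed within the counting interval of the value reported and 18 fell outside it. The other 9 changed sign where the reported interval left out 0. Where that interval held 0, a change of sign was not counted among the 9. Over all kept cells, with both sets of thresholds in the study's Methods, the log2 ratio was 0.60 for Dcx, -0.79 for Igfbpl1, -0.21 for Neurod1 and -1.28 for Eomes. With the mean over cells of each cell's own share of UMIs it was 0.52 for Dcx, -0.27 for Neurod1, 1.51 for Mki67 and 0.84 for Top2a. With all deposited cells it was 0.10 for Sox11 and -0.33 for Neurod1. Among the alternatives chosen after seeing the data, the same mix of clusters gave 0.24 for Dcx, -0.13 for Neurod1 and 0.42 for Igfbpl1, which changed sign. Without the cluster with the highest level, Igfbpl1 was at -0.19 and Top2a at 1.36. In granule neuron-like cells, Neurod1 was at -0.0399 with both sets of thresholds and -0.11 with the mean over cells, and Igfbpl1 without its top cell was at -2.56, a change of sign shown by that cell's own UMIs. In oligodendrocyte precursor-like cells, the marker gate gave 0.087 for Neurod1, against a reported -0.76 whose interval held 0. The difference in the share of cells past the 3-UMI limit was 0.178 points at 5 or more UMIs. It was negative with at least 1 UMI of each gene (-0.238), 3 or more of each (-0.0662), Igfbpl1 required (-0.474), cells thinned to 1000, 1500 or 3000 UMIs (-0.0054, -0.0151 and -0.0975) and the same mix of clusters (-0.207). Apart from that top cell, the cause was not tested. All 8 alternatives for the share of cells with both Mki67 and Top2a gave a difference within the counting interval of the reported one. The alternatives' own intervals could hold 0, as with Mki67 or Top2a (0.0909 points, -0.0209 to 0.207) and 2 or more UMIs of each (0.0276, -0.0029 to 0.0709). No paired analysis was possible because each group is 1 library, and for the same reason no replicate could be left out. Genes whose reported ratio had a library at 0 or under 20 UMIs in all were not recomputed: Igfbpl1, Eomes and Mki67 in precursor-like cells and Eomes, Mki67 and Top2a in granule neuron-like cells. Depth limits what can be said of Mki67, Top2a and Eomes, each with few positive cells.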

Other observations

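An astrocyte-like control cell with 68770 UMIs held 16 of the 32 Eomes UMIs of the control astrocyte-like cells, beside 3 of Dcx and 9 of Sox11. It carried 453 UMIs of astrocyte markers, 281 of subcortical neuron markers and 58 of Cajal-Retzius markers. A tomatidine precursor-like cell outside the 12 described had 9 Mki67 and 0 Top2a UMIs. Of the cells with either gene, 25 control and 25 tomatidine cells had a single UMI of the pair.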
